A study of Mus musculus with 2 samples.

Results

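The genes described here are 8 transcription regulators with a known role in the fast or slow programme of skeletal muscle fibres: Sox6, Prox1, Maf, Mafa, Tbx15, Six4, Eya1 and Nfix. They were chosen by gene symbol from that role and not by a rule on their measured levels, though earlier results of these data were known. All 8 were found among 55536 annotated genes. Total RNA was sequenced from gastrocnemius, a mostly fast calf muscle, of male B6CASTF1/J mice aged 14 days, the F1 hybrids of C57BL/6J and CAST/EiJ. There was 1 group, with no treatment or other genotype, and it held 2 biological replicate libraries made from 300 ng of RNA each. The labels name 3 males and give 1 donor identifier for both libraries, so neither pooling nor separate animals can be read from them, and the spread between libraries may be technical. Reads were assigned to mm10 with the GENCODE M21 annotation, the alleles were not separated and the reference carried no CAST variants.

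A muscle fibre is fast or slow by the myosins, troponins and calcium pump it makes, and a network of DNA-binding proteins sets which of these are transcribed. Six4 and related homeobox proteins, with Eya proteins as their co-activators, turn on fast genes, and in mice the large Maf proteins are needed for the fastest myosin, Myh4. Sox6 holds slow genes down in fast fibres, Tbx15 favours glycolytic fibres in mice, Nfix drives the switch from the embryonic to the foetal muscle programme, and Prox1 favours slow genes and is also the factor that gives lymphatic endothelium its identity.

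Replicate 1 held 40825601 expected counts (estimated reads per gene) and replicate 2 held 37329025, so that a floor of 3 counts equalled 0.0735 and 0.0804 CPM. Genes of fast fibres were among the highest. Mylpf, the fast regulatory myosin light chain, stood at 26007 and 28391 TPM (a level per length, scaled to a fixed sum) and Myh4 at 12004 and 12213 TPM, in replicates 1 and 2. All 15 listed fast genes and 12 of 13 slow genes reached 1 TPM in both libraries. Their medians over genes were 6841 TPM for the fast list and 122.1 TPM for the slow list, led by Myl2 (304.8 and 294.3 TPM), the slow regulatory light chain, and Myh7 (271.8 and 235.7 TPM), the slow myosin. In bulk tissue fewer cells of a type and less RNA per cell cannot be told apart.

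All 8 genes were above 1 TPM in both libraries, as were 49.2% of nuclear protein-coding genes and 21.2% of all annotated genes. Their median was 46.8 TPM, beside 7.55 TPM for the 11077 coding genes that averaged at least 1 TPM. They ranged over more than 2 orders of magnitude, with Nfix far above the others, 4 genes close together near 50 TPM, and Eya1, Six4 and Prox1 below 10 TPM. The second quantification, made directly from reads and an index, gave the same outer places and another order inside the middle group.

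**Figure D1:**
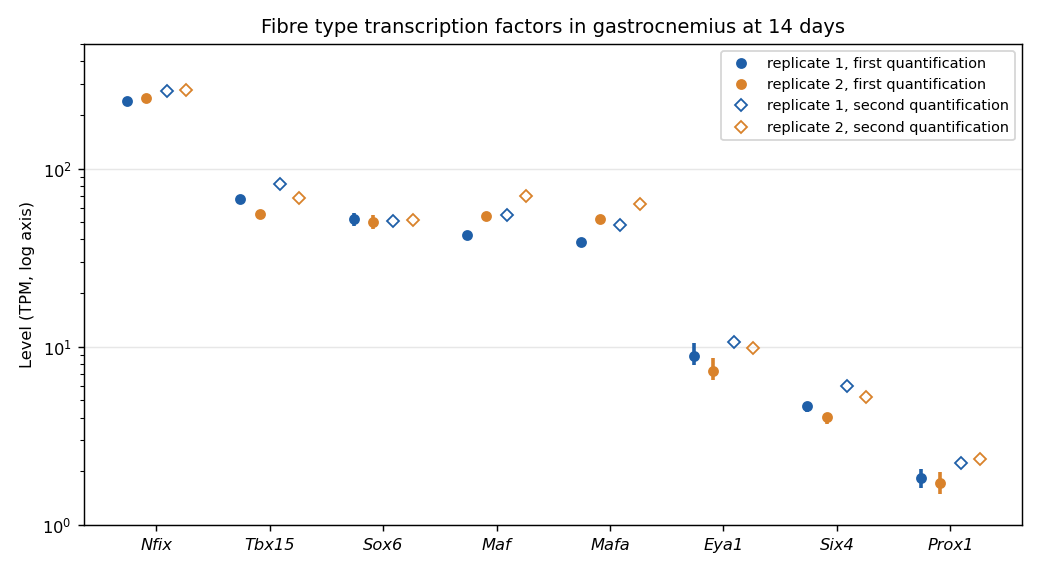
Level of each gene in TPM (log axis) in replicate 1 and replicate 2, for the first quantification (filled circles, with the quantifier's own interval as a bar) and the second (open diamonds). Nfix sits at 239.7 and 248.5 TPM, Prox1 at 1.83 and 1.72 TPM, and Tbx15, Sox6, Maf and Mafa lie between 38.8 and 67.2 TPM in the first quantification.

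Nfix (ENSMUSG00000001911, chr8:84699876-84800344, minus strand), a nuclear factor I protein, measured 239.7 TPM in replicate 1 and 248.5 TPM in replicate 2, from 21765 and 20344 counts. Its mean of 244.1 ± 6.22 TPM (SD, n = 2) was above the level of 99.0% of coding genes. The ratio of Nfix to Tbx15, the next gene, was 4.03 ± 0.65 (SD, n = 2).

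Tbx15 (ENSMUSG00000027868, chr3:99240381-99354259, plus strand), a T-box factor, measured 67.2 TPM in replicate 1 and 55.3 TPM in replicate 2. Sox6 (ENSMUSG00000051910, chr7:115470872-116038796, minus strand), an HMG-box protein of the SoxD group, measured 52.3 and 50.1 TPM. Both replicate values of Tbx15 were above both of Sox6, and the gap of 10.05 TPM between their means was little more than the SD of Tbx15, 8.41 TPM. In replicate 2 the quantifier's intervals met, 52.8 to 56.4 TPM for Tbx15 and 45.9 to 54.5 TPM for Sox6.

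Maf (ENSMUSG00000055435, chr8:115682942-115707794, minus strand) measured 42.3 TPM in replicate 1 and 53.8 TPM in replicate 2. Mafa (ENSMUSG00000047591, chr15:75745490-75748228, minus strand) measured 38.8 and 52.2 TPM. Both are basic leucine zipper proteins, and both were higher in replicate 2. Their mean levels, 48.1 ± 8.11 and 45.5 ± 9.51 TPM (SD, n = 2), differed from each other and from Sox6 by less than the spread between libraries. Sox6 was above both in replicate 1 and below both in replicate 2. Maf was slightly above Mafa within each library, but below it in CPM per kilobase of merged exons. Sox6, Maf and Mafa therefore have no order that is settled over libraries and scales.

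That order moved with the way reads were counted. Sox6 took the third place in the gene table and the fifth in the second quantification, where it measured 50.5 and 51.7 TPM against 55.0 and 70.4 TPM for Maf. When only coding transcripts with a complete reading frame were summed, Sox6 fell to 21.3 ± 1.56 TPM (SD, n = 2), 41.5% of its level, while Maf and Mafa kept all of theirs. CPM per kilobase of merged exons gave 11.1 for Sox6, 23.0 for Maf and 34.9 for Mafa. The quantifier's interval for Sox6 spanned 16.9% of its level in replicate 1, beside 5.12% for Maf.

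Eya1, a phosphatase and co-activator of Six4 and its relatives (ENSMUSG00000025932, chr1:14168954-14310235, minus strand), measured 8.86 TPM in replicate 1 and 7.27 TPM in replicate 2. Six4, a homeobox factor (ENSMUSG00000034460, chr12:73099609-73113456, minus strand), measured 4.66 and 4.02 TPM. Prox1, a homeobox factor (ENSMUSG00000010175, chr1:190118035-190170714, minus strand), was the lowest at 1.83 and 1.72 TPM, from 396 and 338 counts. In gene table TPM the ranges of these 3 genes did not overlap, and the gap between neighbours was larger than the SD of either. In CPM per kilobase of merged exons the ranges of Eya1 (2.19 and 1.93) and Six4 (2.13 and 1.88) did overlap, though Eya1 was slightly higher within each library. By range their order is therefore not settled on that scale.

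Each gene was next set beside paralogues, other genes of its family. In 11 of 12 listed pairs, the gene of the 8 (Maf in its pair with Mafa) was higher than its paralogue in both libraries, and the exception was Eya1 under Eya4. The second quantification gave 10 of 12, and Six4 with Six2, which crossed between the libraries, is not among these pairs. Maf and Mafa are both among the 8, so in their pair a gene of the 8 is higher whatever the values. The pairs were chosen with earlier results of these data known, so the tally depends on that choice and is a description only. With 2 libraries the smallest p of an exact sign-flip test is 0.5, so the ratios are given with their spread and no p.

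**Figure D2:**
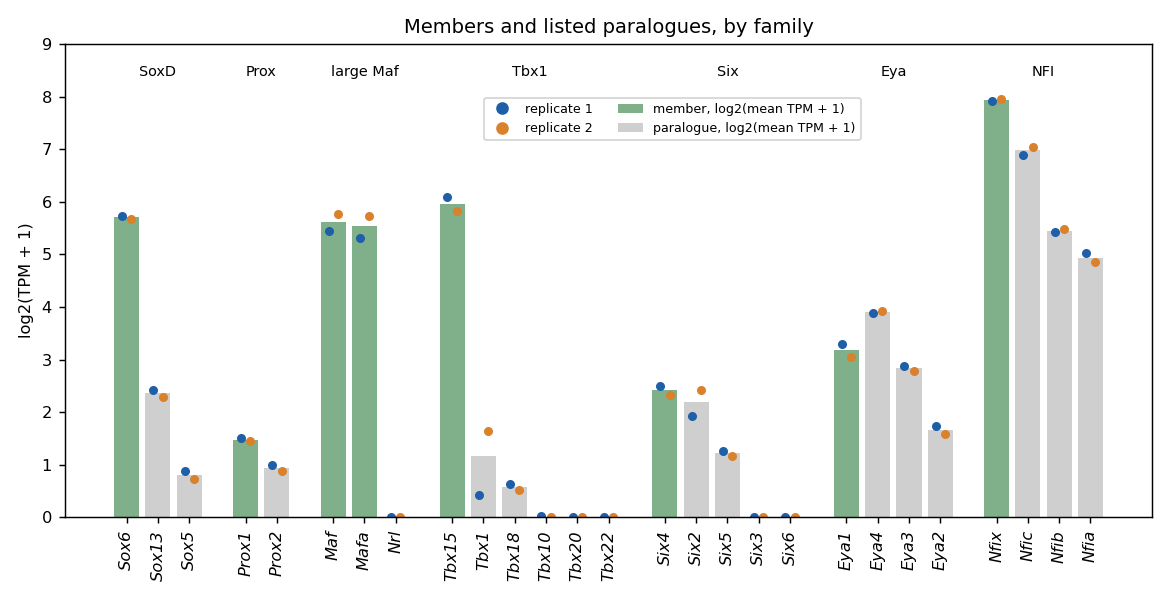
Level as log2(TPM + 1) of the 8 genes (green) and listed paralogues (grey), grouped by family, with bars at the mean and points for replicates 1 and 2. Sox6 and Tbx15 stand well above the other genes drawn of their families, Maf and Mafa stand level with each other, and Eya1 lies under Eya4.

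In the Tbx1 subfamily of T-box genes, Tbx15 made up 97.1 ± 2.16% (SD, n = 2) of the summed TPM. Tbx18 measured 0.56 and 0.44 TPM, and Tbx10, Tbx20 and Tbx22 had at most 1 count in a library. Tbx1, which acts in branchial arch and head muscle, had 20 counts (0.35 TPM) in replicate 1 and 113 counts (2.12 TPM) in replicate 2, a log2 ratio of -2.66 (adjusted p = 1.01e-17, exact binomial test on these 2 libraries, described with the library differences). Tbx15 lay in the other direction, higher in replicate 1.

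Among the SoxD genes, Sox6 held 91.3 ± 0.54% (SD, n = 2) of the summed TPM. Sox13 followed with 4.38 and 3.90 TPM, and Sox5, the partner of Sox6 in cartilage, measured 0.84 and 0.65 TPM. The Sox6 level was 12.4 ± 0.65 times that of Sox13 and 69.7 ± 10.6 times that of Sox5 (SD, n = 2). On complete-frame transcripts alone Sox6, at 20.2 and 22.4 TPM, was still above the gene table values of Sox13 and Sox5.

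Maf and Mafa stood at nearly the same level, with Maf 1.06 ± 0.044 times Mafa (SD, n = 2) and the higher of the pair in both libraries. Nrl, a large Maf factor of rod photoreceptors, had 0 counts in both libraries. The small Maf genes, which lack an activation domain and pair with other factors, were led by Mafg at 14.9 TPM in replicate 1 and 14.0 TPM in replicate 2. Mafk measured 6.13 and 5.22 TPM, and Maff, at 1.22 and 0.71 TPM, was higher in replicate 1 (log2 ratio 0.80, adjusted p = 0.0285, exact binomial test).

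Six4 was 3.27 ± 0.080 times Six5 (SD, n = 2), which measured 1.40 TPM in replicate 1 and 1.25 TPM in replicate 2. Six2 measured 2.79 and 4.34 TPM and was lower in replicate 1 (log2 ratio -0.68, adjusted p = 2.58e-05, exact binomial test). Six4 was thus above Six2 in replicate 1 and below it in replicate 2. Six3 and Six6 had 0 counts in both libraries.

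Eya1 supplied 26.5 ± 2.41% (SD, n = 2) of the Eya family TPM and Eya4 46.1 ± 2.89%. Eya4 measured 13.8 and 14.1 TPM, 1.75 ± 0.27 times Eya1 (SD, n = 2). Eya3 measured 6.39 and 5.91 TPM, below Eya1 in the gene table but above it in the second quantification, where the log2 ratio of Eya1 to Eya3 was -0.17 in place of 0.34. Eya2 measured 2.31 and 2.01 TPM with 174 and 89 counts and was higher in replicate 1 (log2 ratio 0.81, adjusted p = 0.000157, exact binomial test). Dach1, a co-factor of the same network, measured 2.95 and 3.43 TPM, and Dach2 had 8 counts and 1 count.

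Nfix held 55.3 ± 0.39% (SD, n = 2) of the nuclear factor I TPM, 1.96 ± 0.098 times the level of Nfic, which measured 118.2 and 131.6 TPM. Nfib measured 41.9 and 43.6 TPM and Nfia 31.4 and 27.9 TPM. In the second quantification the share of Nfix was 45.7 ± 2.17% and that of Nfic 37.9 ± 3.16%. All 4 genes of the family were thus well above the median coding gene.

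Prox1 was 1.95 ± 0.14 times Prox2 (SD, n = 2), its only paralogue, which had 44 counts in each library. Prox1 is also a marker of lymphatic endothelium. Of 6 other lymphatic endothelial markers, 4 reached 1 TPM in both libraries and none was at 0. Their levels summed to 16.7 TPM in replicate 1 and 14.9 TPM in replicate 2. Pdpn measured 5.66 and 5.54 TPM, Lyve1 5.39 and 3.00 TPM and Flt4 1.94 and 1.69 TPM. In TPM, Ccl21a (2.37 and 3.20), Reln (0.90 and 0.98) and Mmrn1 (0.39 and 0.44) were lower in replicate 1. Of the 6, only Lyve1 was called in the exact binomial test, described with the library differences. Satellite cell markers summed to 46.5 and 35.8 TPM, most of it from Sdc4 at 32.76 and 23.25 TPM. Pax7, at 1.46 and 1.74 TPM, did not follow the direction of that sum. The part of these cells in the Prox1 level was not tested.

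Calcineurin and its NFAT targets relay slow nerve activity to fibre genes, and the 10 listed genes of that pathway all reached 1 TPM in both libraries. Ppp3r1, the regulatory subunit of calcineurin, measured 74.2 TPM in replicate 1 and 78.9 TPM in replicate 2, and the catalytic subunits Ppp3ca and Ppp3cb measured 62.1 and 62.6 TPM and 48.2 and 47.2 TPM. These subunits were at about the level of Tbx15 and Sox6. Rcan1, an inhibitor of calcineurin that calcineurin itself induces, measured 19.1 and 33.4 TPM (log2 ratio -0.88, adjusted p = 2.75e-65, exact binomial test). In that test 2 of the 10 genes were higher in replicate 1, 5 were higher in replicate 2 and 3 were not called, beside 10.2% and 11.4% of all genes tested that were higher in replicate 1 and in replicate 2.

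Transcript tables showed how each gene's level was made up. Shares of TPM count molecules per length, so a short transcript with few reads can carry a large share, and shares of counts weigh long transcripts more. Tbx15, Six4 and Mafa each came almost wholly from 1 transcript: Tbx15-201 with 97.5 ± 0.19% of the TPM, Six4-201 with 95.8 ± 0.37% (SD, n = 2), and the only annotated Mafa transcript, which has a single exon. Prox1-202 carried 75.2 ± 3.37% of the Prox1 TPM, and all 3 Prox1 transcripts have a coding sequence of 2211 bases.

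**Figure D3:**
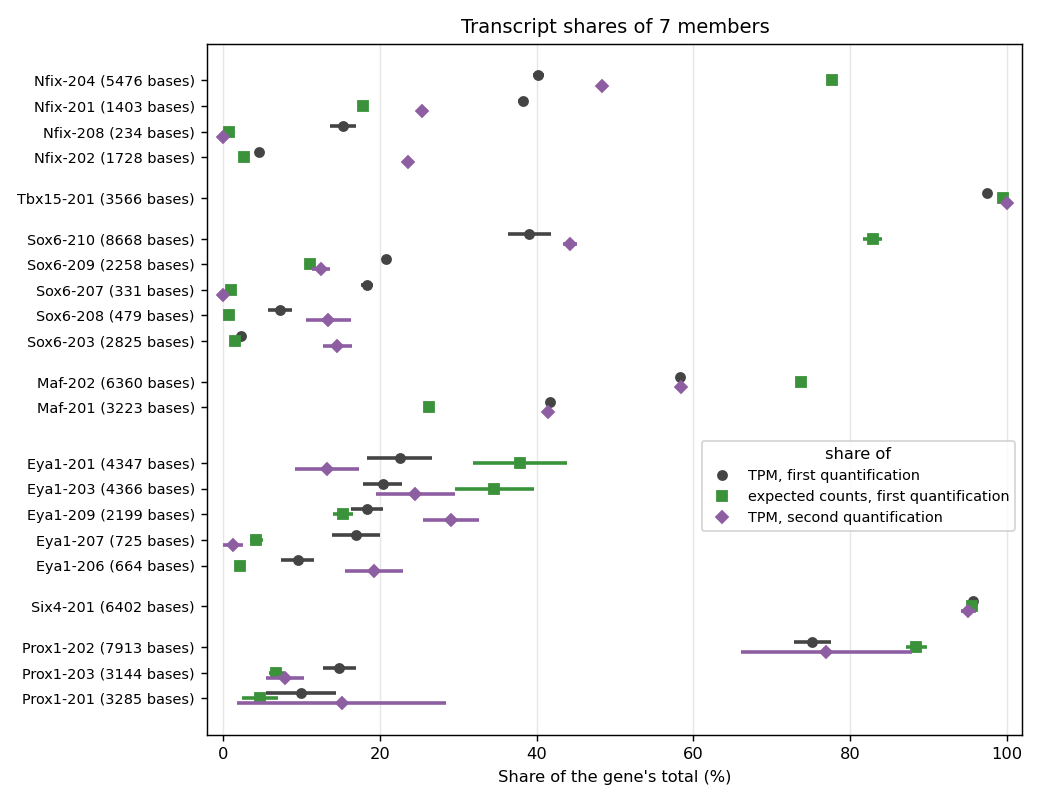
Share of each gene's total carried by its transcripts of at least 10% in either quantification, as a percentage, for TPM and expected counts of the first quantification and TPM of the second; markers are means of the 2 libraries and lines join replicates 1 and 2. Each Maf transcript takes nearly the same TPM share in both quantifications, while Nfix-208, 15.3% in the first, is at 0 in the second.

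Maf was divided between Maf-202, an unspliced transcript of 6360 bases, with 58.3 ± 0.71% of the TPM, and Maf-201, a spliced transcript of 3223 bases, with 41.7 ± 0.71% (SD, n = 2). The second quantification gave 58.5 ± 0.29% and 41.5 ± 0.29%. The higher Maf level of replicate 2 was seen in both transcripts, at 24.5 and 31.7 TPM for Maf-202 and 17.9 and 22.2 TPM for Maf-201 in replicates 1 and 2. The transcripts share 1109 coding bases and then part, because Maf-201 splices to a distant exon.

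The ends of the Maf reading frames are shown to make that difference visible. Each begins with the last 45 shared bases in lower case and ends with its stop codon. Capitals mark bases at genome positions that the other reading frame does not use. Both stretches of capitals open with the letters GT, which come from different positions. On the minus strand of chromosome 8 of mm10, Maf-202 covers chr8:115705751-115705799, and Maf-201 joins bases up to chr8:115705799 to an exon whose stop codon ends at 115693159.
Maf-202: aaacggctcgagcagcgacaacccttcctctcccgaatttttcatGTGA
Maf-201: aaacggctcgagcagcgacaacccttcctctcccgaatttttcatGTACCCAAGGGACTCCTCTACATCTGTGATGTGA
The unspliced form thus ends 4 bases after the shared part, stop codon included, and the spliced form 34 bases after it.

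Sox6 was the most scattered, with 16 annotated transcripts. Sox6-210, a complete coding transcript of 8668 bases, carried 39.1 ± 3.89% of the TPM but 82.9 ± 1.77% of the counts (SD, n = 2). Sox6-207, a fragment of 331 bases, carried 18.4 ± 1.13% of the TPM from 1.06% of the counts, and the second quantification gave it 0. Sox6-209, a retained-intron transcript, carried 20.7 ± 0.17% of the TPM, and 12.4 ± 1.64% in the second quantification. In all, complete-frame coding transcripts held 41.6 ± 4.25% of the Sox6 TPM and 84.7 ± 1.74% of its counts, and 65.2 ± 3.98% of the TPM in the second quantification.

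Because most Sox6 counts fell on a transcript that begins at base 116031047 of chromosome 7, the 250 bases before that start are shown, from RefSeq on GRCm38.p6, minus strand, chr7:116031048-116031297. Capitals mark matches to the E-box CANNTG, the motif of myogenic basic helix-loop-helix factors, which reads the same on both strands.
Sox6 promoter: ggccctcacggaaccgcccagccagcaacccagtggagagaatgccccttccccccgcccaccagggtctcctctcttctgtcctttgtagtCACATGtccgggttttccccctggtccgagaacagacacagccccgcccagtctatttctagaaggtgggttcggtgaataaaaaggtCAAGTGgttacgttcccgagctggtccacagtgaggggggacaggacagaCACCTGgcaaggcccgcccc
It holds 3 matches, and 66.2% of 32851 mouse promoters of this length hold at least 1. The share that hold 3 or more was not counted. The GC content of the Sox6 promoter was 60.8%, beside a median of 52.4%. RefSeq promoters were matched for 4 of the 8 genes, Sox6, Prox1, Six4 and Nfix. Of their 14 promoters the one shown holds the most E-box matches. The promoter nearest the start of Nfix-204 holds 0, with a GC content of 52.4%, and both Six4 promoters hold 0.

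Nfix differed between the quantifications in which transcripts took the reads. Nfix-204, of 5476 bases, carried 40.2 ± 1.03% of the TPM and 77.7 ± 0.036% of the counts, and Nfix-201, of 1403 bases, carried 38.2 ± 0.90% of the TPM (SD, n = 2). A processed transcript of 234 bases, Nfix-208, carried 15.3 ± 2.34% of the TPM from 0.74% of the counts and was at 0 in the second quantification. Nfix-202 carried 4.55 ± 0.33% in the first quantification and 23.7 ± 0.40% in the second.

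These transcripts differ in an exon of 123 bases at chr8:84723728-84723850 that keeps the reading frame. Transcripts that include it held 44.8 ± 1.36% of the Nfix TPM and 80.4 ± 0.086% of the counts, and coding transcripts that skip it held 39.5 ± 1.06% of the TPM (SD, n = 2). In the second quantification the shares of TPM were 72.0 ± 0.24% with the exon and 27.8 ± 0.32% without it. By these sums of whole-transcript estimates, transcripts with the exon were the larger coding form in both, by different margins. Reads on the exon or its junctions were not counted. Nfix-204, the main transcript with the exon, is also the only coding one that extends to 84704712. Use of the exon and use of that transcript end therefore cannot be told apart here. The exon is shown in capitals between 20 coding bases on each side in lower case, above the junction formed when it is skipped, read on the minus strand of mm10.
Nfix with exon: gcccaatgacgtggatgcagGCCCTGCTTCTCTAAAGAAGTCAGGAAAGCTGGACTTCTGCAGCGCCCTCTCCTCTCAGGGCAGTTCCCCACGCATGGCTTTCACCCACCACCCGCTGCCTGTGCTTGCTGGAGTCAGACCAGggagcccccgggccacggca
Nfix without exon: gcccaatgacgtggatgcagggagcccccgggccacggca

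Eya1 had no leading transcript. Eya1-201 carried 22.5 ± 5.87% of the TPM, Eya1-203 20.4 ± 3.54%, Eya1-209 18.4 ± 2.84% and the fragment Eya1-207 17.0 ± 4.37% (SD, n = 2). In the second quantification Eya1-209 was highest with 29.1 ± 5.02%, Eya1-201 carried 13.3 ± 5.78% and Eya1-207 carried 1.25 ± 1.77%. Eya1-201 was below Eya1-203 in replicate 1, at 1.63 and 2.03 TPM, and above it in replicate 2, at 1.94 and 1.30 TPM, and the quantifier's intervals of both were wide. The 4 complete-frame transcripts held 62.3 ± 3.66% of the TPM.

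Genes that overlap these 8 took few counts. Sox6os, antisense to Sox6, had 65 counts in replicate 1 and 62 in replicate 2, about 1% of the Sox6 counts. Lyl1, on the other strand from Nfix, had 66 and 62 counts, 0.30% of those of Nfix in both libraries. The other overlapping genes had at most 6 counts in a library. The sources used here do not say whether counting used strand, so reads of such pairs may not be told apart.

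Finally the 2 libraries were set against each other gene by gene. Maf and Mafa were lower in replicate 1 than in replicate 2, Tbx15 was higher, Sox6 and Nfix were lower by less, and Eya1, Six4 and Prox1 were not called. Rounded expected counts were tested with the exact binomial test, two-sided, against the share that TMM-scaled library sizes give, on 17245 genes with at least 10 counts and with Benjamini-Hochberg adjustment and a threshold of 0.05. The test compares these libraries only and covers counting error, so deep genes pass on small differences. Scaling by the added ERCC RNAs instead raises every log2 ratio by 0.30, which makes those of Sox6, Nfix, Nfib, Nfic and all listed fast genes but Pvalb positive (Myh1 and Myh2 were so already), leaves Maf, Mafa, Tbx1, Six2 and Rcan1 negative, and calls all 8 genes.

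**Figure D4:**
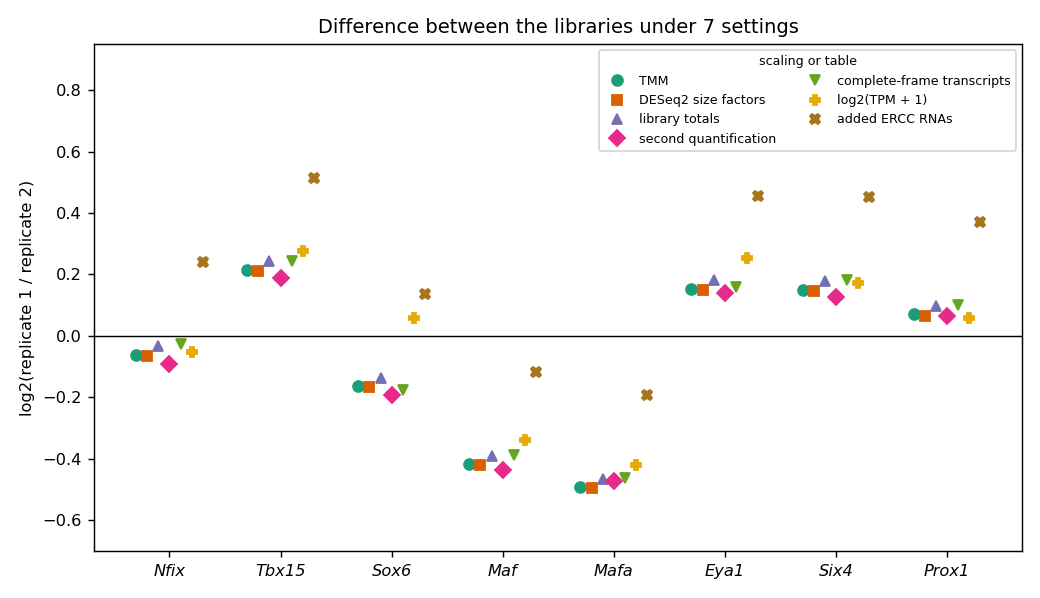
log2 of replicate 1 over replicate 2 for each gene under 7 scalings or tables, with 0 as a line. Maf and Mafa lie below 0 and Tbx15, Eya1, Six4 and Prox1 above 0 under all 7, whereas Nfix is at 0.24 and Sox6 at 0.14 when scaled by the added ERCC RNAs, and Sox6 is at 0.06 on log2(TPM + 1).

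Of the 8 genes 5 were called, beside 21.7% of all genes tested and 34.7% of the coding genes with at least 300 counts in both libraries. Higher in replicate 1 was 1 of them, beside 10.2% of genes tested, and higher in replicate 2 were 4, beside 11.4%. None was more than 1.5-fold apart, as 5.0% of genes tested were while also called. The quantifier's intervals did not meet for Tbx15, Maf, Mafa and Six4, and did not meet for 13.6% of coding genes that averaged at least 1 TPM.

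Mafa had 3278 counts in replicate 1 and 4131 in replicate 2, a log2 ratio of -0.49 (adjusted p = 1.35e-46, exact binomial test). Maf had 6696 and 8012 counts, a log2 ratio of -0.42 (adjusted p = 1.22e-66, exact binomial test). Both genes lay apart in the same direction, by less than 1.5-fold.

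Tbx15 had 7295 counts in replicate 1 and 5630 in replicate 2, a log2 ratio of 0.21 (adjusted p = 1.59e-15, exact binomial test). For Sox6, with 6382 and 6403 counts, the log2 ratio was -0.16 (adjusted p = 3.60e-09, exact binomial test), although its TPM was slightly higher in replicate 1. For Nfix the log2 ratio was -0.06 (adjusted p = 0.000144, exact binomial test), and it was not called with library totals (adjusted p = 0.0694). Six4, with 944 and 762 counts, had a log2 ratio of 0.15 (adjusted p = 0.117), Eya1 one of 0.15 (adjusted p = 0.187) and Prox1 one of 0.07 (adjusted p = 0.748) in the exact binomial test.

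Most fibre genes lay close together in the 2 libraries, and 3 slow genes lay over 1.5-fold apart. Of the 15 fast genes, 13 were higher in replicate 2 (11.4% of all genes tested), 1 was higher in replicate 1 (10.2% of all genes tested) and 1 was not called. All 15 had more counts than any of the 8 regulators. Their median log2 ratio was -0.13, beside 0.00 over all genes tested. Myh4, the gene that large Maf proteins act on, had a log2 ratio of -0.09. Of the 13 slow genes 4 were higher in replicate 1, 3 were higher in replicate 2 and 6 were not called, with a median of 0.04. Myh7 had a log2 ratio of 0.12, whereas the stretch-responsive genes Ankrd2 (51.0 and 104.7 TPM, log2 ratio -1.09) and Csrp3 (30.7 and 112.4 TPM, log2 ratio -1.94) were lower in replicate 1 by more than any of the 8 regulators, both past the exact binomial test. Myh7b, at 0.89 and 0.41 TPM, was higher in replicate 1 in the same test (log2 ratio 1.16).

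Sums of markers of other cells also differed between the libraries, though not every marker followed its sum. The 3 adipocyte markers summed to 0.71 TPM in replicate 1 and 5.71 TPM in replicate 2, and none reached 1 TPM in both. Schwann cell markers summed to 78.6 and 115.6 TPM and erythroid markers to 977.5 and 1348 TPM. Tendon markers summed to 138.0 and 91.3 TPM in replicates 1 and 2, with Fmod and Tnmd making up most of the sum, while Scx was lower in replicate 1 (4.61 and 6.23 TPM, log2 ratio -0.48, adjusted p = 0.0144, exact binomial test). Endothelial markers summed to 150.1 and 129.7 TPM. The 6 macrophage markers summed to 38.7 and 33.7 TPM, of which Cd163 (8.65 and 5.34 TPM) was called and the other 5 were not, among them Csf1r at 6.96 and 8.29 TPM. Fibro-adipogenic progenitor markers summed to 272.9 and 249.8 TPM, pericyte and smooth muscle markers to 345.4 and 332.3 TPM, cartilage markers to 11.5 and 7.95 TPM and lymphocyte markers to 0.41 and 0.54 TPM. Of the 4 cartilage markers, Col2a1 (9.86 and 6.60 TPM) and Acan (0.90 and 0.47 TPM) were called. Sox9 lay the other way (0.78 and 0.88 TPM) and was not called, and Matn1 had 0 counts. Of the 5 lymphocyte markers none reached 1 TPM. Only Cd4 among them had enough counts to be tested, and it was not called. The part of these cells in the differences of the 8 genes was not tested.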

How the data were processed

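Total RNA-seq of 2 libraries was analysed from the deposited tables. Per the deposited descriptions, the authors quantified genes and transcripts from transcriptome alignments, and transcripts a second time from reads and an index. The deposited expected counts are estimated reads, not normalised, and the authors scaled TPM to a fixed sum over all entries. Interval bounds are the quantifier's own. Aligner and quantifier: not given in the sources used here. ERCC RNAs took 0.731% and 0.881% of the counts of replicates 1 and 2. Expected counts were rounded, scaled with TMM (edgeR 4.0.16; DESeq2 1.42.0 size factors as an alternative; R 4.3.3) and tested in SciPy 1.17.1 with the exact binomial test. The code of the test was run on simulated counts that held counting error only, as the test itself assumes. That run therefore says nothing about spread beyond counting error. Family ratios on the log scale used log2(TPM + 1). The 8 genes, 26 gene lists and 12 pairs were chosen with earlier results of these data known. Named were the 8 genes, genes of families (some are not reported here), up to 3 top genes of other lists and list genes called and over 1.5-fold apart, though marker genes are mostly given as sums. Promoters came from RefSeq. Floors cover counting error only.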

Additional observations from a re-analysis of the deposited data

How the results depend on the processing

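No paired analysis was possible because there was 1 group, so no 2 groups share replicate numbers. All 8 genes kept at least 1 TPM under every table and with either library alone. In the order by level, 8 genes held their places in the gene table, and 5 did so in the second quantification and on complete-frame transcripts, and 6 did so per kilobase; leaving out a library gave 5 to 8. Scaling by added ERCC RNAs shifted the median log2 ratio of all genes by 0.30, raised the genes called to 9052 (8756 higher in replicate 1) and called 8 of the 8 regulators, turning Nfix to 0.24 and Sox6 to 0.14, while Maf (-0.12) and Mafa (-0.19) stayed negative and thus lay below that shift. Sox6 was also reversed on log2(TPM + 1) and log2(TPM + 0.1), at 0.059 and 0.060. Eya1 over Eya3 turned to -0.17 in the second quantification. The cause was not tested. Nfix was not called with library totals or complete-frame transcripts (adjusted p = 0.138, exact binomial test), and Six4 was called on complete-frame transcripts (adjusted p = 0.0423, exact binomial test). Complete-frame transcripts and counts per kilobase were added after seeing the data. With 2 libraries of 1 group, spread between animals is not measured, and Prox1, at 396 and 338 counts, rests on the fewest.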
